A study of Drosophila melanogaster with 50 samples.

Results

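The pair-rule genes are a small family of *Drosophila* segmentation genes, and the 8 described here are *h*, *eve*, *run*, *ftz*, *odd*, *prd*, *slp1* and *slp2*. They were taken by name as the pair-rule genes other than *opa*, and each was found by its gene identifier in all 5 deposited gene tables, so that 8 of 8 are described out of 17875 genes listed in the ovary tables and 17612 in the embryo tables. No cutoff on a measured value was applied, but earlier results of these data were known when the set was drawn up. *Ten-m*, given beside *opa* below for comparison, was not in the set either and is not counted here as a pair-rule gene. The annotation lists *h* (hairy) under the symbol *hry*. The study knocked down *Kdm3*, which encodes a demethylase of dimethylated lysine 9 of histone H3 (H3K9me2), in the female germline (germline knockdown, GLKD) with a small hairpin RNA driven by *nosGAL4*.

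Ovaries of *Kdm3* GLKD females were set against ovaries of control sisters that are wild type for *Kdm3*, with 3 libraries per genotype for RNA-seq, small RNA-seq, H3K9me2 and H3K9me3, and 2 per genotype for Rhino, the protein that marks dual-strand piRNA clusters. Embryos laid by *Kdm3* GLKD females were set against embryos laid by *w* GLKD females, whose hairpin targets the eye pigment gene *w*, with 2 libraries per group for small RNA at 0 to 2 h and at 3 to 5 h and for RNA at 3 to 5 h. All transgenes were in a *w1118* background and flies were untreated. Ovaries were whole and held germline and somatic cells, whereas the hairpin acts in the germline only, and each library pooled many ovaries or embryos.

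Pair-rule genes split the early embryo into segments. Maternal and gap proteins switch them on in the syncytial blastoderm in stripes that mark every other segment, and their products, which for the 8 genes here are transcription factors, then refine each other's stripes and set the expression of segment polarity genes such as *en* and *wg*. The pioneer factor Zelda and the GAGA factor (Trl) open many of the promoters that are active at this stage. Methylation of H3K9, bound by HP1 family proteins such as Rhino, marks heterochromatin and, in the germline, the loci that make PIWI-interacting RNAs (piRNAs) of 23 to 29 nt.

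Among the members, the promoters of *run* were the ones found inside an H3K9me2 peak, in *Kdm3* GLKD ovaries, and they are therefore shown first. *run* encodes the DNA-binding Runt protein and lies on the plus strand of the X chromosome, from 20690670 to 20697321 of the dm6 build, with a distal annotated start at 20690670 and a proximal one at 20694439. Each window runs from 250 bases before to 50 bases after the start, in the RefSeq genome of the same build. Capitals mark matches to the Zelda motif CAGGTA (or TACCTG on the other strand) and to the GAGA factor motif GAGAG (or CTCTC).
run distal start, chrX:20690420-20690719, plus strand: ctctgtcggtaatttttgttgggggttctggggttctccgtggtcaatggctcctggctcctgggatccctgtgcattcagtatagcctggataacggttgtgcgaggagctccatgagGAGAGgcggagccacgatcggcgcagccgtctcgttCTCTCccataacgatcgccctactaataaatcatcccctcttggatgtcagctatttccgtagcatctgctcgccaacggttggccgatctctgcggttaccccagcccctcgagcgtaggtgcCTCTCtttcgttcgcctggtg
run proximal start, chrX:20694189-20694488, plus strand: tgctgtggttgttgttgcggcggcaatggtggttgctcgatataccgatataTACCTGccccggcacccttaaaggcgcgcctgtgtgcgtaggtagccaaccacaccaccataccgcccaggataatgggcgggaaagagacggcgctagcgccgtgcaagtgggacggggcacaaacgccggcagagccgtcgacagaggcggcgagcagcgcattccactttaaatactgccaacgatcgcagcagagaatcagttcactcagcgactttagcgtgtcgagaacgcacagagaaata

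The distal window held 3 GAGAG matches and no CAGGTA, and the proximal window held 1 CAGGTA, 198 bases before the start, and no GAGAG. Over the first annotated start of each member, 5 of 8 windows held CAGGTA (*h*, *ftz*, *odd*, *prd* and *slp1*), against 6.35% of 17620 windows of the same length at the starts of all placed genes. A GAGAG match was found in 8 of 8, against 29.5% of those windows. Both strands were searched, and overlapping matches were counted separately. A match says only that these letters occur in the window.

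The RNA tables give 1 value per gene that can be used here, the base mean, in which the authors averaged normalized counts across every library of a table, both genotypes together. It has no spread, and it holds no difference between *Kdm3* GLKD and its controls, which was not analysed here for RNA. The base means sum to 34376209 in ovary RNA, 19078513 in embryo RNA, 4688955 in ovary 23- to 29-nt RNA, and 142146 and 109515 in embryo 23- to 29-nt RNA at 0 to 2 h and 3 to 5 h. The 5 tables were normalized separately, so genes are placed by rank within a table. Among cell type markers, 5 of 5 germline markers (*vas*, *osk*, *aub*, *bam*, *piwi*) and 3 of 4 follicle cell markers (not *slbo*) were over the median gene in ovary RNA, as were both muscle sheath markers. In embryo RNA 4 of 4 blastoderm and gastrula markers were over the median gene, with *sna* at 3482, and so were 3 of 3 markers of later neurons, muscle and glia, with *elav* at 4192. These counts alone do not tell the tissues apart. In embryo RNA 5 of 5 germline, 2 of 4 follicle cell and 2 of 2 muscle sheath markers were also over the median gene. In ovary RNA 2 of 4 blastoderm and gastrula markers and 2 of 3 later markers were. Fewer cells of a type and less RNA per cell cannot be told apart in such samples.

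At 3 to 5 h, the embryo table listed 8 of 8 members above the median gene, whose base mean was 42.7. Their base means ran between 486 and 2234 with a median of 1537, and 70.0% to 87.5% of listed genes lay lower. The paper reports that progeny of *Kdm3* GLKD females halted at various stages. Stages of the embryos behind these means were not tested, so the levels need not be those of the blastoderm stripes. *h*, *eve* and *run* are primary genes, which respond first to the gap proteins. *h*, which encodes a basic helix-loop-helix repressor that recruits Groucho, here had a base mean of 1506, and *run* had 1568. *eve*, which encodes a homeodomain repressor, was the lowest member at 486.

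Of the genes whose stripes depend in part on those, *ftz*, a homeodomain activator that acts with Ftz-F1, had a base mean of 1631. *odd*, a zinc-finger repressor, had 2234, the highest of the members before gene length is considered. The later-acting *prd*, a paired-domain activator of *wg* and *en*, had 1136. The neighbouring forkhead genes *slp1* and *slp2* had 2099 and 1097.

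Per kb of merged exons, *slp1* was the highest member in the embryo table with a base mean of 1470 per kb. It was followed by *odd* at 952, *ftz* at 919, *h* at 645, *run* at 498, *slp2* at 468, *prd* at 422 and *eve* at 346 per kb. The highest was 4.25-fold over the lowest, and neighbours in this order were 1.04-fold to 1.54-fold apart. Per kb of gene span, introns included, *slp1* was again highest at 1470, but *run* was lowest at 236, below *eve* at 329. Reads were aligned to gene sequences, and which length suits the counts was not tested. The order of the members therefore depends on the scale. Per kb of merged exons *opa*, the pair-rule zinc-finger gene outside this set, had 1210 and *Ten-m* 946, within the range of the members. Per kb of gene span they had 207 and 108, below every member. Without values per library it cannot be said which neighbours differ beyond their spread.

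In ovary RNA the same genes were near the bottom of the table, with 1 exception. Base means of 7 of 8 members were between 0.189 and 2.59, under the median gene at 40.0, and 15.5% to 30.8% of listed genes lay lower than them. *eve* and *prd* both stood at 0.189, which summed over the 6 libraries is 1.13 normalized counts. *h* stood apart at 880.2, with 69.4% of listed genes lower, and its 377 per kb of merged exons compared with at most 1.11 per kb for the other 7. These are the values that a mean over both genotypes and over germline and somatic cells gives, and the cells that hold *h* RNA were not tested.

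**Figure D1:**
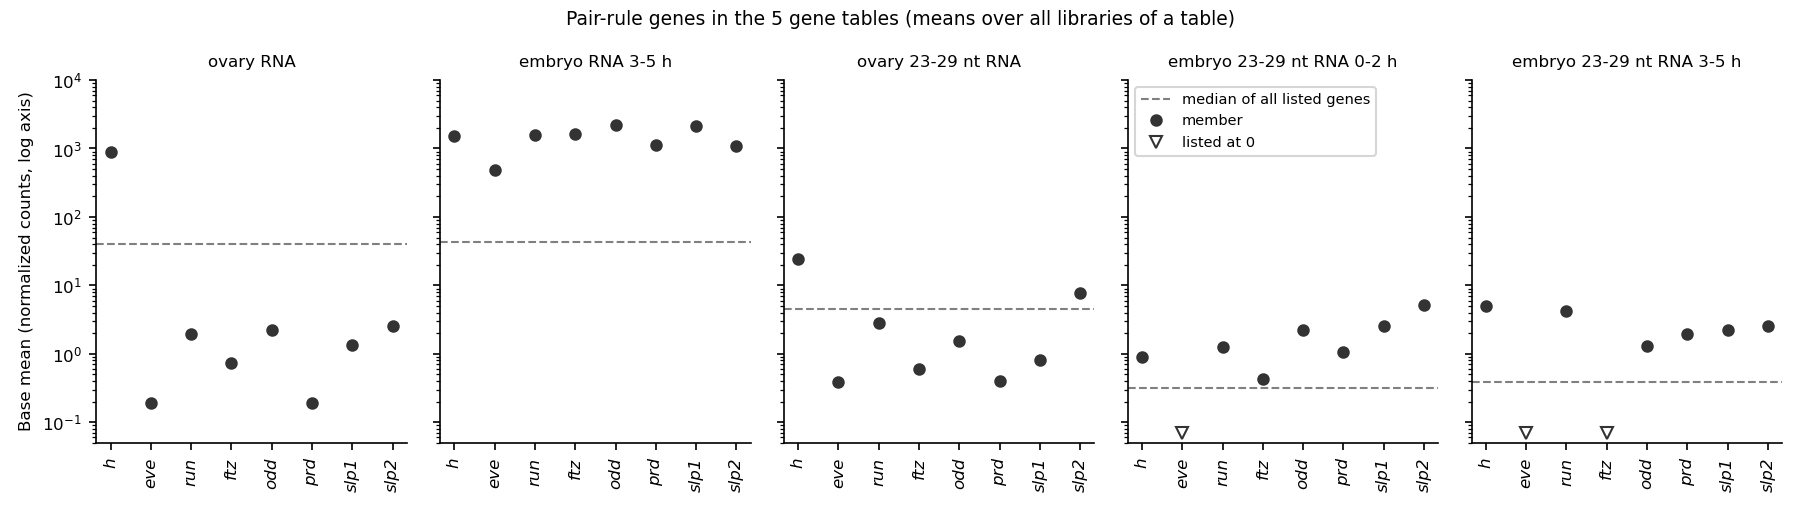
Base mean of each member (points) in the 5 gene tables, on a log axis in normalized counts, with the median of all listed genes as a dashed line and open triangles for genes listed at 0. All 8 members stand above the line in embryo RNA, with *eve* lowest at 486, while in ovary RNA *h* at 880.2 is the 1 member above it.

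Small RNAs of 23 to 29 nt on the members were few. In ovaries *h* had a base mean of 24.5 and *slp2* had 7.71, both over the median gene at 4.48, and the other 6 ran between 0.388 and 2.80. Per kb of gene span *h* had 7.01 and *slp2* 3.29, and the next was *odd* at 0.610. By contrast *opa* had 2394 in the same table, where 98.5% of genes lay lower, and *Ten-m* had 81.1, where 88.7% did.

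In embryos of 0 to 2 h, *slp2* led the members with a base mean of 5.18, followed by *slp1* at 2.55 and *odd* at 2.24. *run* had 1.28, *prd* 1.06, *h* 0.904 and *ftz* 0.423, and *eve* was listed at 0. At 3 to 5 h the order was another one, with *h* at 4.98 and *run* at 4.20 ahead of *slp2* at 2.56, *slp1* at 2.20, *prd* at 1.97 and *odd* at 1.31, and with *eve* and *ftz* listed at 0. Summed over the 4 libraries of a table, the highest member had 20.7 normalized counts at 0 to 2 h (*slp2*) and 19.9 at 3 to 5 h (*h*), so the order among members rests on few reads. Although 7 of 8 members at 0 to 2 h and 6 of 8 at 3 to 5 h were over the median gene, that median was 0.317 and 0.391, and 46.5% and 42.7% of all genes were listed at 0.

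Antisense genes overlap 2 members. *asRNA:CR43948* lies opposite *eve* and had a base mean of 2.03 in embryo RNA, and *asRNA:CR44592* lies opposite *prd* and was listed at 0 there. RNA libraries were stranded, but whether strand was used in counting is not given in the sources used here, so reads of a member and its antisense partner may be shared. Both partners were far below the 486 of *eve* and the 1136 of *prd*.

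The genes whose profile over the 5 tables lay nearest to the median of the members were *halo*, *E(spl)mgamma-HLH*, *lncRNA:CR45916*, *wg* and *phyl*. Likeness was the Euclidean distance over 5 tables on log2(value + 1), with each value a base mean scaled to a fixed table sum, and these 5 were at 0.502 to 0.878, against a median of 7.72 over all genes. The members themselves were at 0.499 (*prd*) to 5.62 (*eve*). *halo*, for example, had 0.158 in ovary RNA and 1971 in embryo RNA. *Kdm3* itself had base means of 302 in ovary RNA and 596 in embryo RNA, which as means over both genotypes do not check the knockdown.

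The known regulators and partners of the members were present in both tissues, with *Bro* as the low one. In ovary RNA 8 of 9 were over the median gene, among them *zld* (Zelda) at 9930, *gro* (Groucho, the corepressor of Hairy) at 6669 and *ftz-f1* at 11550, while *Bro*, a partner subunit of Runt, was at 0.588. In embryo RNA 9 of 9 were over the median gene, with *zld* at 30080 and *Bro* at 191. Of the other segmentation lists, 6 of 6 gap genes and 9 of 10 segment polarity genes were over the median gene in embryo RNA, and the exception was *H15* at 36.4. The maternal genes *bcd*, *nos*, *cad* and *tor* were over the median gene in both tables (4 of 4). In ovary RNA 1 of 6 gap genes (*hb* at 3872) and 5 of 10 segment polarity genes were, against 1 of 8 members.

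H3K9me2, H3K9me3 and Rhino were mapped in ovaries and deposited as 1 list of enriched regions (peaks) per mark and genotype, so no spread between libraries and no test of a genotype difference can be given. A peak's fold is its enrichment over input. The windows below are the annotated gene with 20 kb on each side, and a peak counts if it overlaps by at least 1 bp. Per list there were 9564 H3K9me2 peaks in *Kdm3* GLKD and 3983 in control ovaries, 5282 and 2946 of H3K9me3, and 1882 and 467 of Rhino, so all comparisons of genotypes below stand beside a general difference in list size.

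An H3K9me2 peak was found in the window of 3 of 8 members in *Kdm3* GLKD ovaries, where 84.1% of 17620 placed genes had one, and of 3 of 8 in control ovaries, where 75.7% had one. The same 3 genes, *eve*, *run* and *prd*, were counted in both. The windows of *h*, *ftz*, *odd*, *slp1* and *slp2* held none in either list. On the arms other than X, 81.3% of genes had a peak in *Kdm3* GLKD ovaries and 72.4% in control ovaries, against 2 of the 7 members there. The nearest H3K9me2 peak in *Kdm3* GLKD ovaries was 42.3 kb from *ftz*, 37.9 kb from *h*, 27.7 kb from *odd*, 26.9 kb from *slp2* and 23.4 kb from *slp1*. In control ovaries it was 125 kb from *ftz*, 37.7 kb from *h*, 28.3 kb from *odd*, 31.3 kb from *slp2* and 20.1 kb from *slp1*, so that *slp1* lay just outside the window's reach. The count depends on the window and on peak strength. With 50 kb on each side it was 8 of 8 in *Kdm3* GLKD and 7 of 8 in control ovaries, next to 95.5% and 94.4% of placed genes, and with peaks of at least 2-fold within 20 kb it was 0 of 8 in both, next to 14.8% and 42.0%.

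In *Kdm3* GLKD ovaries most of the H3K9me2 peak length of the members was at *run*, whereas in control ovaries most was at *prd*. At *run*, in *Kdm3* GLKD ovaries 12 peaks covered 25178 bp, or 54.0%, of its window, and in control ovaries 1 peak covered 1342 bp, or 2.88%. The control peak lay 19.7 to 18.3 kb upstream of the distal start, at a fold of 1.81, and a *Kdm3* GLKD peak at a fold of 1.73 lay over nearly the same bases. The longest of the others ran 12.3 kb, from 13.5 to 1.19 kb upstream, at a fold of 1.65. A peak of 2.54 kb at a fold of 1.52 spanned the distal start, from 20690359 to 20692894, and another of 2.54 kb at a fold of 1.55 spanned the proximal start, from 20693841 to 20696380. Both promoter windows printed above therefore had their start site inside a peak, and 71.6% of the *run* gene span was covered in *Kdm3* GLKD ovaries, against 0.0% in control ovaries.

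The folds of the 12 peaks ran between 1.28 and 1.73, and their −log10 q between 1.01 and 5.65, beside a median fold of 1.60 over all X-linked H3K9me2 peaks of *Kdm3* GLKD ovaries. No H3K9me3 or Rhino peak lay in the window in either genotype. The nearest H3K9me3 peak was 52.3 kb away in *Kdm3* GLKD and 62.2 kb away in control ovaries, and the nearest Rhino peak 61.2 kb and 1020 kb. The 7 INE-1 transposon fragments annotated upstream of *run* lay in the gap between the first peaks and were in no peak of either genotype.

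*run* is the 1 member on the X chromosome, and many X-linked genes had values like it. A peak within 20 kb was found for 99.8% of 2678 X-linked genes in *Kdm3* GLKD ovaries and 94.1% in control ovaries. The median X-linked window was covered to 59.3% in *Kdm3* GLKD ovaries and 11.0% in control ovaries, and 40.6% and 18.6% of X-linked genes had a lower coverage than *run*. The difference in coverage, *Kdm3* GLKD minus control, was 51.1 percentage points at *run* and 43.8 at the median X-linked gene, and 61.5% of X-linked genes had a smaller one. More covered length in *Kdm3* GLKD than in control ovaries was found for 96.8% of X-linked genes and 72.2% of all genes. The distal start of *run* lay in a peak in *Kdm3* GLKD ovaries together with the first start of 40.2% of X-linked genes and 15.8% of all genes, while in control ovaries 12.4% and 6.98% of starts did, and no member's.

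**Figure D2:**
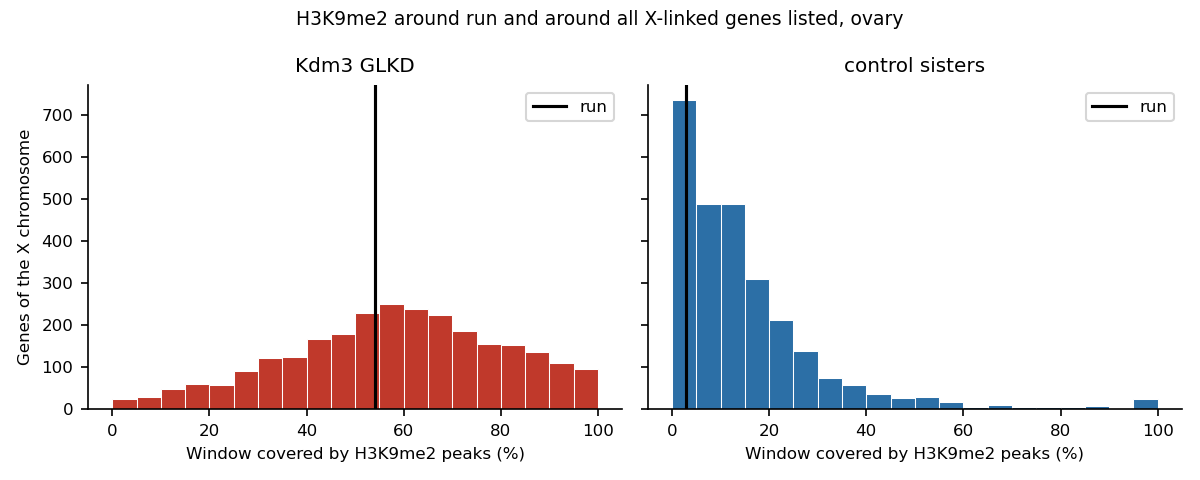
Number of X-linked genes (y axis) by the percentage of their window covered by H3K9me2 peaks (x axis, bins of 5 points), in *Kdm3* GLKD (left) and control sister (right) ovaries, with *run* as a black line. *run* stands at 54.0% in *Kdm3* GLKD and at 2.88% in control sisters, below the X-linked medians of 59.3% and 11.0%.

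At *eve*, on the plus strand of arm 2R from 9979319 to 9980795, H3K9me2 lay far upstream and off the gene. In *Kdm3* GLKD ovaries a peak of 3.86 kb (fold 1.59) and one of 1.81 kb (fold 1.91, the highest at any member) lay between 18.4 and 11.1 kb before the start. In control ovaries a single peak of 2.30 kb (fold 1.46) lay 14.1 to 11.8 kb before it. The window was covered to 13.7% in *Kdm3* GLKD and 5.55% in control ovaries, next to medians of 16.5% and 3.08% for genes of that arm. An H3K9me3 peak of 0.724 kb (fold 1.38), 17.4 to 16.7 kb upstream, was listed in *Kdm3* GLKD ovaries and none within 20 kb in control ovaries, where the nearest was 20.1 kb away.

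*prd* went the other way. It lies on the minus strand of arm 2L from 12082995 to 12085827, and its window was covered by H3K9me2 to 10.7% in *Kdm3* GLKD and 17.9% in control ovaries, and by H3K9me3 to 7.27% and 16.1%. The control signal was mostly 1 block of 6.86 kb for H3K9me2 (fold 1.62) and 6.90 kb for H3K9me3 (fold 1.70), beginning 8.68 kb past the 3′ end of the gene. That block coincided with an annotated copy of the *297* retrotransposon of 6995 bp. H3K9me2 peaks covered 12.9% of this copy in *Kdm3* GLKD and 98.1% in control ovaries, and H3K9me3 peaks 44.5% and 98.6%. In *Kdm3* GLKD ovaries the H3K9me2 of the window was in 5 peaks of 0.412 to 1.19 kb at folds of 1.32 to 1.54. A peak of 0.903 kb lay inside the control block, and another of 1.19 kb overlapped the second control peak, of 0.801 kb, upstream of the gene. The nearest of the 5 peaks was 2.81 kb from the gene.

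The same was seen on other copies of that element, a comparison added after the values at *prd* were seen. Of 43 annotated copies of *297* of at least 5000 bp, 42 had less of their length in H3K9me2 peaks in *Kdm3* GLKD than in control ovaries, and 42 less in H3K9me3 peaks. The median copy was covered to 14.7% in *Kdm3* GLKD and 98.2% in control ovaries by H3K9me2, and to 45.9% and 98.2% by H3K9me3. Copies of 1 family are near-identical, so reads may be shared among them and they are not independent, and whether the copy is present in the strains used was not tested. Over the whole H3K9me2 lists the median fold was 1.56 in *Kdm3* GLKD and 1.75 in control ovaries. For H3K9me3 it was 1.56 and 1.77. No other transposon family was compared in this way, so whether the difference is particular to *297* was not tested.

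**Figure D3:**
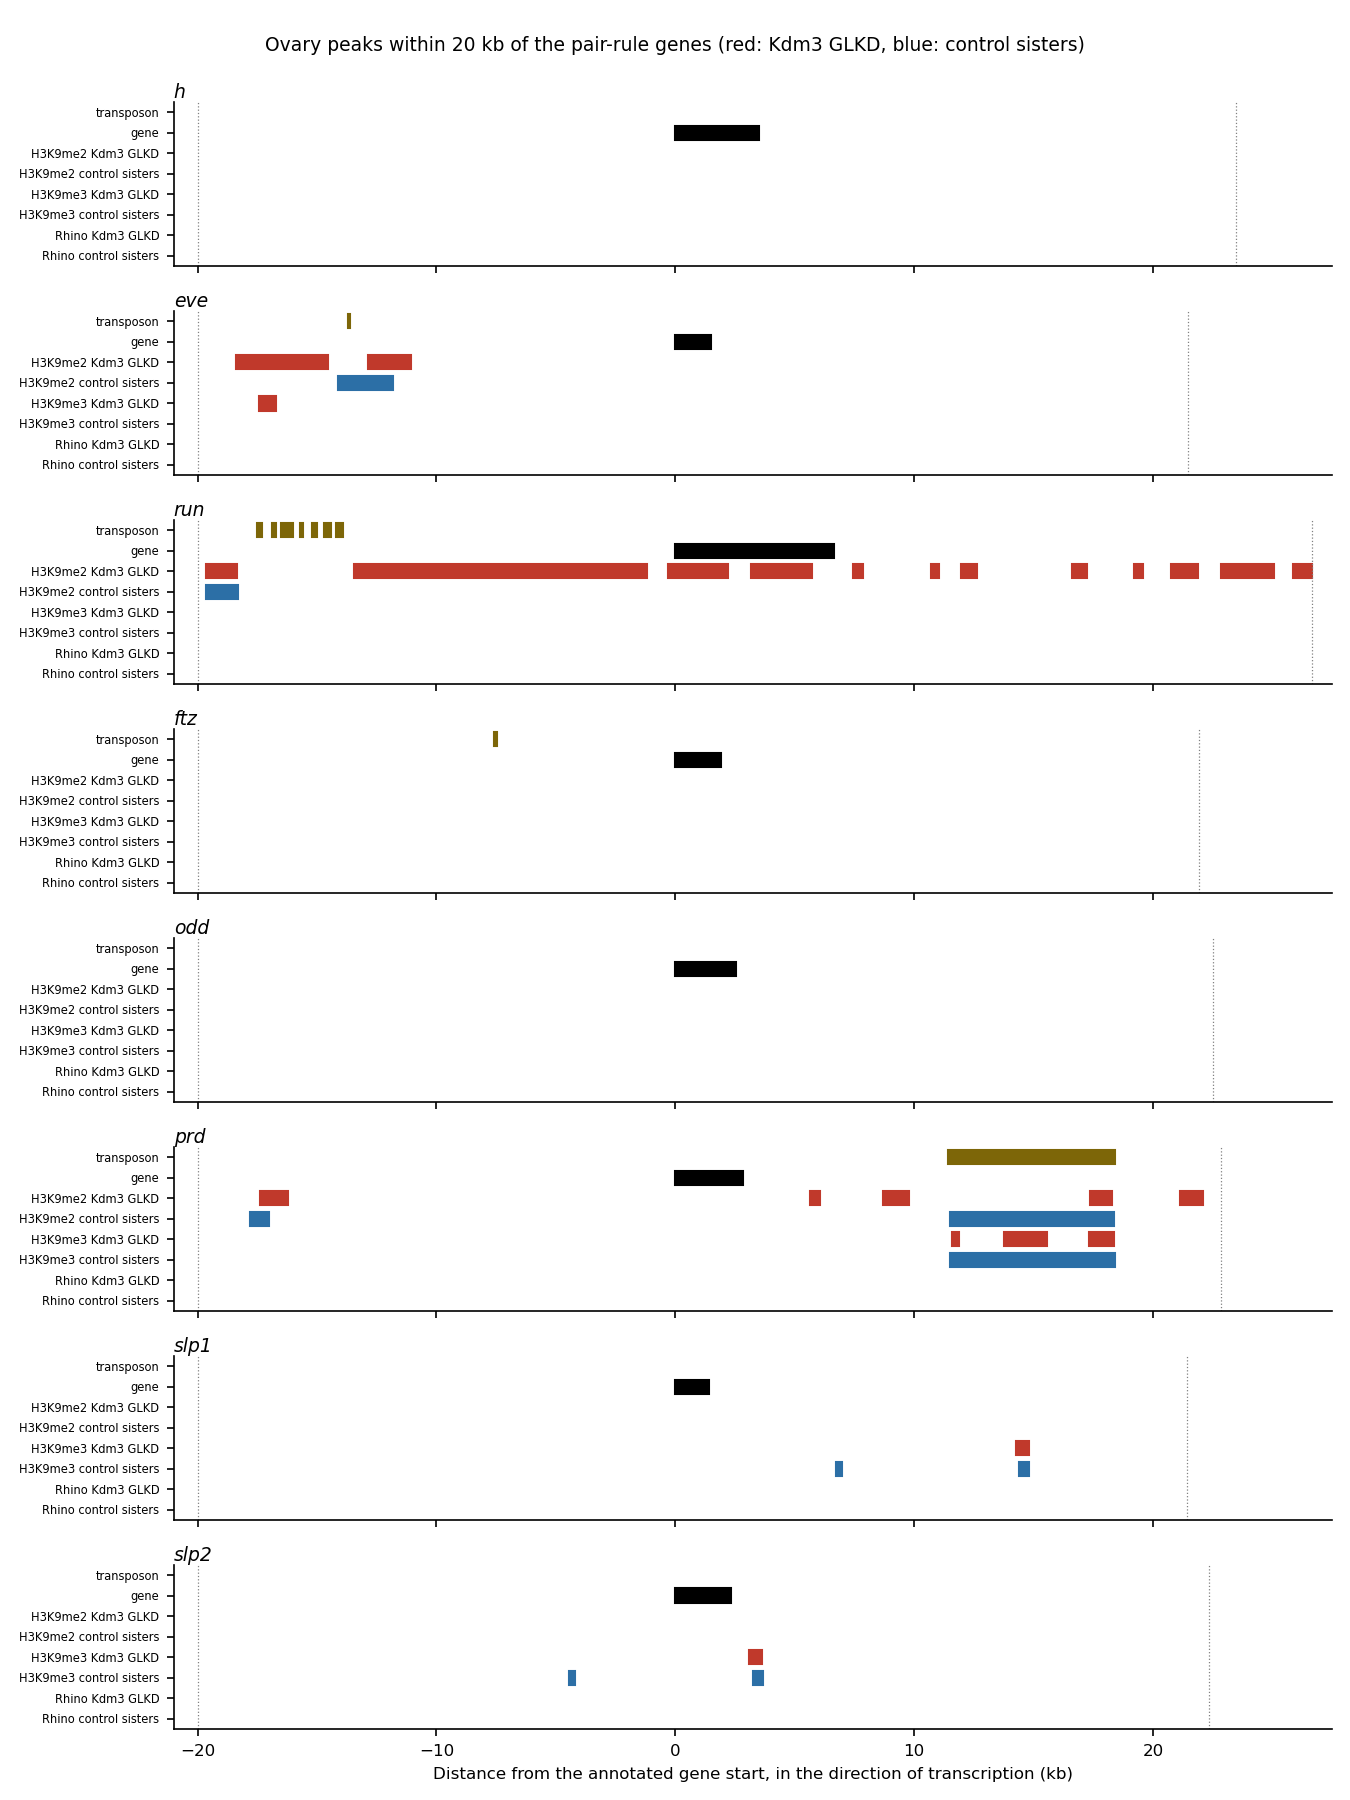
Peaks within 20 kb of each member against the distance from its annotated start in the direction of transcription (kb), with the *Kdm3* GLKD row (red) above the control sister row (blue) for each mark, the gene in black and annotated transposons in brown. Peaks span both starts of *run* in *Kdm3* GLKD only, the *prd* window holds a control block over the *297* copy, and no Rhino peak appears at any member.

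For H3K9me3, 4 of 8 members had a peak within 20 kb in *Kdm3* GLKD ovaries (*eve*, *prd*, *slp1* and *slp2*) and 3 of 8 in control ovaries (*prd*, *slp1* and *slp2*). Of all placed genes 63.3% and 59.8% had one. *slp1* and *slp2* lie side by side on the plus strand of arm 2L, from 3825675 to 3827099 and from 3836840 to 3839185, so that their windows overlap, and the H3K9me3 peaks listed lay in the part they share and count for both. A peak of 0.547 kb (fold 1.32) in *Kdm3* GLKD ovaries and one of 0.408 kb (fold 1.45) in control ovaries overlapped each other, the first lying 0.759 to 1.30 kb and the second 0.902 to 1.31 kb past the end of *slp2*. A further control peak of 0.261 kb (fold 1.47) lay between the genes. These peaks covered 1.32% of the *slp1* window in *Kdm3* GLKD and 1.61% in control ovaries. No member had an H3K9me3 peak over its start or its gene span in either list.

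Rhino was not listed within 20 kb of any of the 8 members, either in *Kdm3* GLKD ovaries, where 16.6% of placed genes had a peak so near, or in control ovaries, where 2.62% did. The nearest Rhino peak lay 43.1 kb (*ftz*) to 358 kb (*slp2*) from the members in *Kdm3* GLKD ovaries, with a median of 122 kb, and 37.0 kb (*prd*) to 1740 kb (*eve*) in control ovaries, with a median of 1250 kb. Over all genes the medians were 114 and 864 kb. *opa* had 17 Rhino peaks in its window in *Kdm3* GLKD ovaries, up to a fold of 3.57, and 0 in control ovaries. *Ten-m* had 4 in *Kdm3* GLKD ovaries, up to a fold of 3.16, and 0 in control ovaries. Both genes are outside the set, and the paper lists *opa* in a region that gained piRNAs. Given the values at *opa*, the 8 members do not stand for all pair-rule genes.

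**Figure D4:**
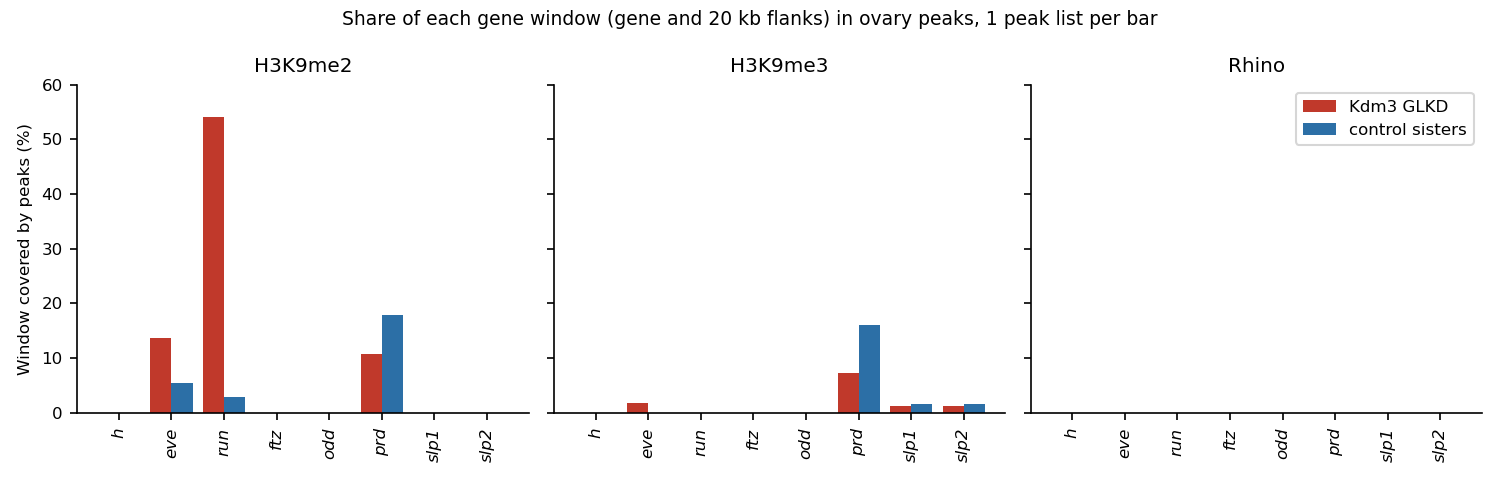
Percentage of each member's window (gene with 20 kb flanks) inside peaks of H3K9me2, H3K9me3 and Rhino, from 1 peak list per bar, in *Kdm3* GLKD (red) and control sister (blue) ovaries. *run* reaches 54.0% in H3K9me2 in *Kdm3* GLKD against 2.88% in control sisters, *prd* is lower in *Kdm3* GLKD for both histone marks, and *h*, *ftz* and *odd* are at 0 throughout.

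The 3 members with H3K9me2 peaks within 20 kb in the ovary were *run*, *prd* and *eve*. In embryo RNA the other 5, *odd*, *slp1*, *ftz*, *h* and *slp2*, ran between 1097 and 2234. *eve* (486) was below each of those 5, *prd* (1136) was above *slp2* (1097) only, and *run* (1568) was among them. In ovary small RNA *prd* (0.404) and *eve* (0.388) were below each of the other 5, which ran between 0.611 and 24.5, and *run* (2.80) was among them. These are 3 genes against 5, given as values with no test.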

How the data were processed

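The members and gene lists were chosen with earlier results of these data known. The authors aligned RNA-seq reads, and uniquely matching 23- to 29-nt small RNA reads left after removal of other small RNA classes, to gene sequences (Bowtie), and featureCounts gave the counts. The deposited tables give a base mean, a signal of normalized counts averaged by the authors over both genotypes with DESeq2. Their other columns, the authors' log2 fold changes with errors, scores and p-values, were not used. ChIP-seq reads were mapped to dm6 with BWA 0.7.17.4, duplicates removed with Picard 2.18.2.1 and peaks called with MACS2 2.1.1.20160309.6. The deposited lists give each peak's fold ratio over input and −log10 q-value, and how replicates were combined is not given in the sources used here.

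Genes were placed with the release 6 annotation (17810 of 17875 ovary and 17547 of 17612 embryo identifiers found), on X, chromosome 4 and the major autosomal arms. Overlaps and covered lengths were computed with Python code tested on simulated peaks, and covered length counts merged peaks once. The named genes were the members, *opa*, *Ten-m*, lists of regulators, gap, segment polarity, maternal and marker genes, *Kdm3*, and the 5 genes of nearest profile. The 1 list per mark and genotype permits no test.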

Additional observations from a re-analysis of the deposited data

How the results depend on the processing

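Counts of members over the median gene in RNA stayed the same under every alternative. Ranked among genes with a base mean over 0, 1 member was over the median in ovary 23- to 29-nt RNA in place of 2, 1 at 0 to 2 h in place of 7 and 3 at 3 to 5 h in place of 6. Peaks at members were all under a fold of 2, which left 0 members for each mark and genotype. A −log10 q of at least 5 left 0 members for H3K9me3 in *Kdm3* GLKD and 1 in control ovaries. Without flanks, H3K9me2 lay in 1 member (*run*) in *Kdm3* GLKD and 0 in control, and H3K9me3 in 0 in both. With 5 kb flanks H3K9me2 lay at 2 members in *Kdm3* GLKD and 0 in control ovaries, and H3K9me3 at 1 in either genotype. With 50 kb flanks H3K9me2 reached 8 members in *Kdm3* GLKD and 7 in control, H3K9me3 6 in each, and Rhino 1 in each. An overlap of at least 500 bp left 4 members with H3K9me3 in *Kdm3* GLKD and 1 in control ovaries. The share of all placed genes was computed only for H3K9me2, with 50 kb flanks and at a fold of at least 2. The counts at the other settings therefore cannot be set against all genes. Counting *slp1* and *slp2* as 1 locus, or leaving out peaks over the *297* copy, both added after seeing the data, kept every count within 1.5 times.

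Among protein-coding genes, 85.7% in *Kdm3* GLKD and 77.1% in control ovaries had H3K9me2 within 20 kb, and 64.2% and 60.7% H3K9me3. For H3K9me2, 50 kb flanks gave 95.5% in *Kdm3* GLKD and 94.4% in control ovaries, and a fold of at least 2 gave 14.8% and 42.0%, both added after seeing the data. Averaged over the members' own arms the shares for H3K9me2 were 82.8% in *Kdm3* GLKD and 75.1% in control ovaries. In the same order they were 62.8% and 58.6% for H3K9me3 and 17.0% and 3.09% for Rhino. No paired analysis was possible because the files hold 1 mean per gene or 1 peak list per mark and genotype. For the same reason no replicate could be left out, and read depth per library was not used here.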

Other observations

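The peaks near other patterning genes are given as values with no test. Over all placed genes 84.1% had an H3K9me2 peak within 20 kb in *Kdm3* GLKD and 75.7% in control ovaries. Of 6 gap genes, 4 had an H3K9me2 peak within 20 kb in *Kdm3* GLKD and 3 in control ovaries, and peaks covered 98705 bp and 28973 bp of their windows in sum. Of 10 segment polarity genes, 5 in *Kdm3* GLKD and 6 in control ovaries had one, over 48311 bp and 38291 bp. Of 9 regulators and partners of the members 8 in *Kdm3* GLKD and 9 in control ovaries had one, and of 4 maternal genes 4 and 3. Rhino lay near 2 gap genes (*hb* and *hkb*) and 2 segment polarity genes (*inv* and *ptc*) in *Kdm3* GLKD ovaries and near none of either list in control ovaries, next to 16.6% and 2.62% of all placed genes.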
